A study of Homo sapiens with 3 samples.

Results

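The integrated stress response was described here through 40 genes: 29 genes of the ATF4 pathway and 11 cytosolic aminoacyl-tRNA synthetases, of 23379 genes with values. They were chosen by name, and all 40 were found by pairing Ensembl gene IDs with symbols. RNA had been sequenced from DU145, an established human line derived from a prostate carcinoma metastasis, in 3 libraries with 1 library per group. The P-Enter library was the negative control, the WT library came from cells overexpressing wild-type BRAF, and the L597R library from cells transfected with plasmid for the BRAF mutant of that name. BRAF is the kinase between RAS and MEK in the ERK pathway. How long the cells carried the plasmids was not given in the sources used here. With 1 library per group there is no replicate spread, so no difference below has a p-value.

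When cells lack amino acids, accumulate unfolded protein or meet other stresses, a small set of kinases phosphorylates the translation initiation factor eIF2. General protein synthesis then falls, while the mRNA of the transcription factor ATF4 is translated better, through upstream reading frames in its leader. ATF4 binds together with C/EBP proteins at composite elements and raises genes for amino acid synthesis, amino acid import and tRNA charging. ATF4 activity is therefore set largely by translation, and mRNA levels alone do not measure it.

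The composite element can be read directly in some of these promoters. The letters TGATGNAA, searched on both strands in the 250 bases before each RefSeq start (build GRCh38.p14), occurred in 8 of the 35 members that had an entry (22.9%) and in 3.89% of 27305 genes. Some genes had several starts, so the 35 members contributed 57 windows. The matches are shown with the motif in capitals, each 5′ to 3′ on the strand of its gene, because they are the letters through which ATF4 and C/EBP proteins are known to bind. Members were chosen as genes of the ATF4 pathway, some of them known for this element, so their share is a description and not independent of the choice.
ASNS: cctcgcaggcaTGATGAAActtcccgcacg
ATF3: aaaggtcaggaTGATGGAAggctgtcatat
CEBPG: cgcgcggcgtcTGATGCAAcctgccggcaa
SLC1A5: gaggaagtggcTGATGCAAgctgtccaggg
CHAC1: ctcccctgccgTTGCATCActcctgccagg
AARS1: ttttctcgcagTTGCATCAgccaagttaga
IARS1: ttttcagcgcgTTGCATCAcctcc
GARS1: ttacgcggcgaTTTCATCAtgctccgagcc
The window of ASNS is chr7:97872458-97872487 on the minus strand, with the motif at positions -68 to -61 from the start. CHAC1 is at chr15:40953251-40953280 on the plus strand, AARS1 at chr16:70289675-70289704 on the minus strand and IARS1 at chr9:92293698-92293721 on the minus strand. In CEBPG, GARS1 and SLC1A5 the match lies upstream of one RefSeq start but downstream of another RefSeq start of the same gene. In ASNS, CHAC1 and IARS1 the match lies inside the span that GENCODE release 29 gives the gene. The cyclic AMP response element TGACGTCA was present in 1 of the 35, PPP1R15A, and in 2.03% of all genes.
PPP1R15A: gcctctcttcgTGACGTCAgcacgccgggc
A match is a string of letters in a window, and binding was not measured here.

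Values were FPKM, reads scaled by the length of the gene and by the total reads counted. Counted reads came to 13294004 for P-Enter, 15665132 for WT and 16603676 for L597R. Both these sums and the whole reads behind each gene were worked out from the FPKM values. Read ratios below compare CPM, the reads of a gene scaled to a common library total, between 2 libraries and carry an exact 95% interval for counting error, so they describe these libraries and not the conditions. BRAF, the gene introduced, stood at 1.65 (P-Enter), 4.41 (WT) and 9.59 FPKM (L597R). Of 5 epithelial markers, 4 had values: KRT18 was well expressed (34.3, 36.6 and 37.6 FPKM), while CDH1 had 1, 0 and 0 reads, KRT19 had 3, 0 and 1, and KRT8 lay between 0.534 and 0.623 FPKM. All 3 mesenchymal markers reached a mean of 1 FPKM. VIM lay between 127 and 132 FPKM, while ZEB1 was at 2.72, 3.33 and 4.79, with ratios to P-Enter of 1.22 (1.06 to 1.42) for WT and 1.76 (1.54 to 2.02) for L597R, and 1.44 (1.26 to 1.66) for L597R after the adjustment described next. The part of this difference in the members' values was not tested. Among the rest, none of the 7 with values among 8 markers of other cell types did. The name of the line thus rests on the labels.

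A gradient with base composition ran through all 3 comparisons. Across 9354 protein-coding genes, differences in log2(FPKM + 1) went down as the GC content of the transcript went up, with a Spearman correlation of -0.45 for WT and -0.69 for L597R against P-Enter. Genes are not independent replicates, and the correlation is a description. A regression on length, GC content and level together held 18.1% and 47.4% of the variance of those differences. Among the 37 members described below as meeting the filter the correlation was weaker, at -0.13 and -0.41. The members' transcripts spanned 41.4% to 66.2% GC. A second regression on the same terms, fitted to log2 read ratios, held 14.9% and 42.9% of their variance. Its value for a gene of given length, GC content and level was divided out of the read ratio. The result is called the adjusted or trend-adjusted ratio below.

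No member passed the size rule in any comparison. The rule asked that log2(FPKM + 1) differ by 1 or more and that the mean over the 3 libraries reach 1 FPKM, and 37 of the 40 members met that filter. Over all 10639 genes that met it, 0.978% passed when WT was set against P-Enter, 0.808% when L597R was, and 0.724% between L597R and WT. On this scale the change of low genes is understated. The members' median difference was 0.00 for WT and 0.03 for L597R against P-Enter, beside 0.00 and -0.01 over all genes tested. Together the 40 genes took 7039 CPM (95% interval 6994 to 7084) of P-Enter, 7035 (6994 to 7077) of WT and 7279 (7238 to 7320) of L597R. Their summed share was thus the same within counting error in P-Enter and WT, and higher in L597R.

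Smaller differences were resolved by the read counts. WT and L597R were set against the same P-Enter library, so their ratios are not independent. In WT the interval lay above 1 for 4 and below 1 for 7 of the 37 members, where 14.0% and 12.1% of all genes lay above and below, 26.1% together. Rescaling by the median ratio turned that split into 6 and 6. Trend adjustment turned the first split into 8 and 2 (background 10.2% and 10.8% of the 9354 protein-coding genes). In L597R the interval lay above 1 for 14 and below 1 for 9, against a background of 25.5% and 23.9%, or 49.4% together. After trend adjustment it lay above for 16 and below for 3, against 17.4% and 16.7% of protein-coding genes. All backgrounds after adjustment are shares of those genes. Members were read more deeply than most genes, with a median of 4971 reads over L597R and P-Enter against 1177 for all genes tested, and deep genes have narrow intervals. Few differences were sizeable. A narrower count took intervals that lay wholly over 25% higher or over 20% lower. In WT it held 0 members higher and 1 lower, CARS1, where 0.273% and 0.517% of all genes were counted, 0.790% together. In L597R it held 1 higher, EPRS1, and 1 lower, CARS1, where 4.71% and 0.978% were counted, 5.69% together.

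**Figure D1:**
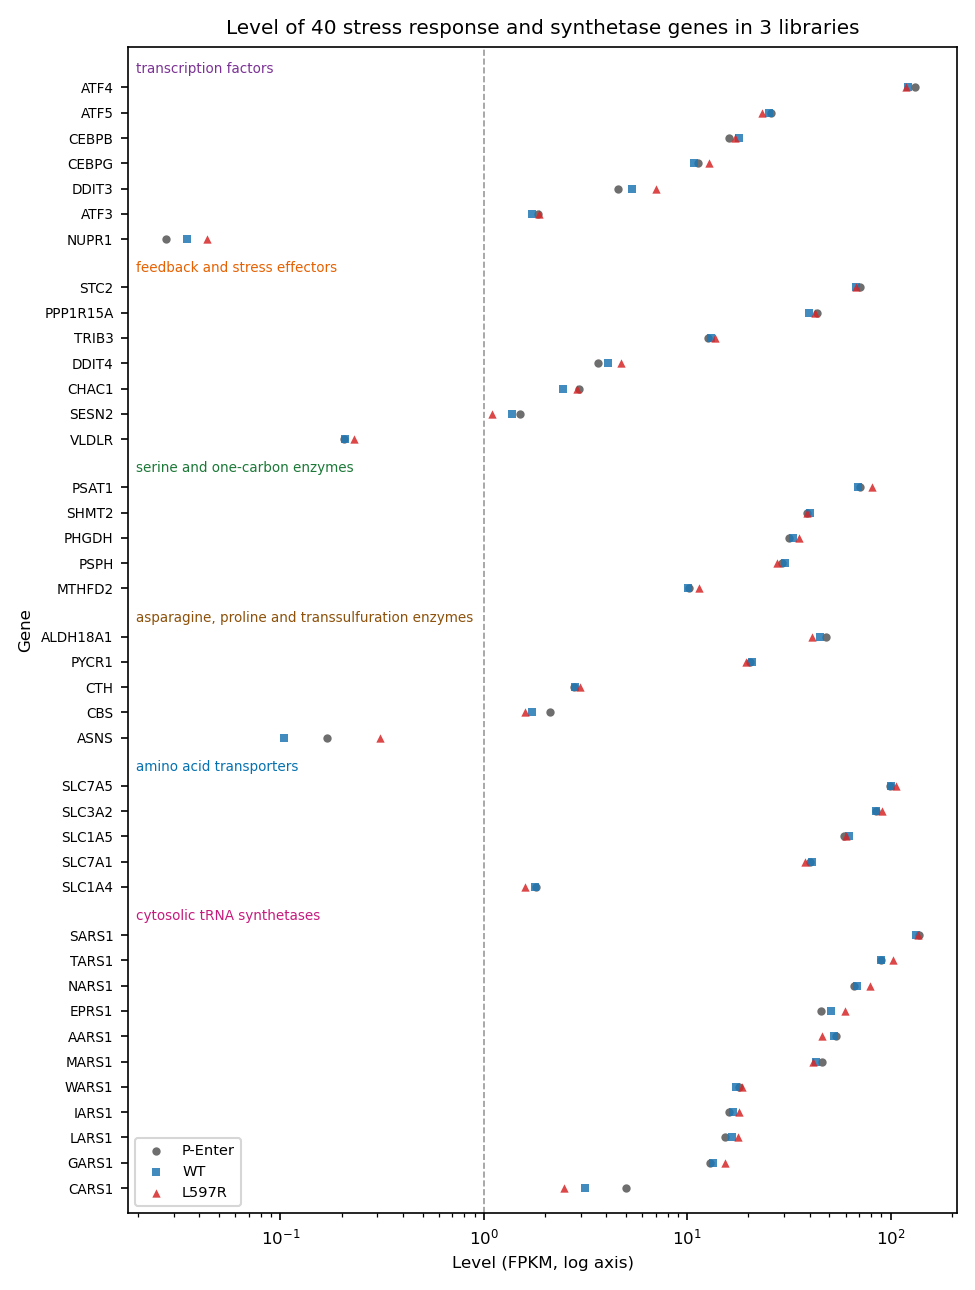
Level of the 40 genes in FPKM (log axis), grouped by role and ordered by mean level within a role, with 1 point per library: circles for P-Enter, squares for WT and triangles for L597R. The dashed line marks 1 FPKM, and NUPR1, VLDLR and ASNS lie to its left in every library, while for most genes the 3 points nearly coincide.

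The transcription factors covered a wide range of levels, and their differences were small and mixed. ATF4, the central factor of the response, was by far the highest at 132 (P-Enter), 122 (WT) and 118 FPKM (L597R). Its mRNA was thus highest in the control, with read ratios of 0.924 (0.888 to 0.962) for WT and 0.899 (0.864 to 0.936) for L597R against P-Enter. ATF4 mRNA has 56.7% GC, and the trend-adjusted ratios were 0.980 (0.941 to 1.02) and 1.02 (0.983 to 1.06), so both intervals then held 1. ATF5, a related factor under similar translational control, was at 25.7, 25.3 and 23.3 FPKM in that library order, lower in L597R (0.904, 0.829 to 0.986) before adjustment and at 1.02 (0.940 to 1.12) after it.

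DDIT3, which encodes the pro-apoptotic factor CHOP, had the highest read ratio among the members that met the filter. It was at 4.55 (P-Enter), 5.37 (WT) and 7.05 FPKM (L597R), from 79, 110 and 153 reads. The ratio of L597R to P-Enter was 1.55 (1.17 to 2.06), and 1.597 (1.21 to 2.12) after trend adjustment. For WT the ratio was 1.18, and its interval held 1 (0.877 to 1.598). DDIT3 (ENSG00000175197, chr12:57516588-57521737, minus strand, GRCh38) overlaps the end of MARS1, and 27.2% of its exonic bases are also exons of that gene on the other strand. With MARS1 included, exons of other genes cover 31.6% of its exonic bases on the opposite strand and 8.03% on the same strand. Since the strand setting of the counting was not given, reads of the shared stretches cannot be assigned with certainty. MARS1 itself was at 45.9, 43.0 and 41.7 FPKM, with a ratio for L597R of 0.908 (0.872 to 0.947), and 1.0 (0.960 to 1.04) adjusted. The part of MARS1 reads in the DDIT3 difference was not tested.

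The C/EBP partners of ATF4 differed little between libraries before adjustment. CEBPB was at 16.1, 18.1 and 17.3 FPKM in P-Enter, WT and L597R, with both intervals against P-Enter holding 1, and adjusted ratios of 1.17 (1.03 to 1.34) for WT and 1.17 (1.02 to 1.34) for L597R. CEBPG, which pairs with ATF4 at amino acid genes, was at 11.2, 10.8 and 12.8 FPKM. It was higher in L597R than in P-Enter (1.14, 1.03 to 1.27), though not beyond the trend of that comparison (1.07, 0.961 to 1.19). ATF3, a stress-induced repressor downstream of ATF4, was low throughout at 1.84, 1.72 and 1.86 FPKM. NUPR1, a stress-induced chromatin protein, had 2, 3 and 4 reads, at or near the limit of 3 reads that a count of 0 would allow.

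Among the feedback and effector genes DDIT4 was the one with an interval above 1 in L597R. It encodes REDD1, an inhibitor of mTORC1, and stood at 3.62 (P-Enter), 4.10 (WT) and 4.72 FPKM (L597R). The ratio of L597R to P-Enter was 1.303 (1.01 to 1.68) and the trend-adjusted one 1.47 (1.14 to 1.90). An antisense gene, DDIT4-AS1, covers 41.2% of its exonic bases. PPP1R15A (GADD34), which returns the eIF2 phosphatase to its substrate and so ends the response, was at 43.4, 39.7 and 42.6 FPKM. Its ratio for WT was 0.913 (0.856 to 0.975), and 0.967 (0.906 to 1.03) adjusted. For L597R it was 0.981 (0.921 to 1.04), and 1.11 (1.05 to 1.19) adjusted.

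TRIB3, the pseudokinase that restrains ATF4, was at 12.6, 13.0 and 13.7 FPKM. Its ratio for L597R was 1.09 (0.972 to 1.21), and 1.23 (1.10 to 1.37) after adjustment for its 60.9% GC. CHAC1, which degrades glutathione and is among the most responsive targets of ATF4, was at 2.93, 2.46 and 2.88 FPKM. With 80, 79 and 98 reads its intervals were wide, 0.606 to 1.16 around 0.838 for WT and 0.722 to 1.33 around 0.981 for L597R, and a difference within them was not detectable at this depth. SESN2, a leucine sensor upstream of mTORC1, was at 1.499, 1.38 and 1.10 FPKM, with intervals that held 1. STC2, a secreted glycoprotein, was abundant at 70.5, 67.7 and 67.3 FPKM. Its ratios of 0.960 (0.924 to 0.999) for WT and 0.954 (0.918 to 0.992) for L597R moved to 0.991 (0.953 to 1.03) and 1.03 (0.993 to 1.07) after adjustment. The lipoprotein receptor gene VLDLR was below the filter at 0.205 to 0.230 FPKM.

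The enzymes that make serine and feed one-carbon units into folate were well expressed. For L597R the interval lay above 1 for 3 of 5 (all genes 25.5%) and after adjustment for 2, PHGDH and SHMT2 (protein-coding genes 17.4%). PHGDH, the first enzyme of serine synthesis, was at 31.6 (P-Enter), 33.1 (WT) and 35.4 FPKM (L597R). The order of the libraries was P-Enter, WT, L597R, with ratios of 1.05 (1.004 to 1.09) for WT and 1.12 (1.07 to 1.17) for L597R, and 1.20 (1.15 to 1.253) for L597R after trend adjustment. PSAT1, the second enzyme, was at 70.5, 69.0 and 80.8 FPKM. The PSAT1 ratio was 1.15 (1.08 to 1.21) for L597R, and its adjusted interval held 1 (1.04, 0.983 to 1.10). MTHFD2, the mitochondrial folate enzyme, was at 10.2, 10.1 and 11.4 FPKM, higher in L597R before adjustment (1.12, 1.05 to 1.20) and at 0.973 (0.912 to 1.04) after it. PSPH, the last step of serine synthesis, lay at 29.2, 30.3 and 27.6 FPKM, and SHMT2, which passes the serine carbon to folate in mitochondria, at 39.0, 40.2 and 38.9. For both, the intervals against P-Enter held 1, though the adjusted ratio of SHMT2 for L597R was 1.13 (1.07 to 1.19).

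Of the 4 enzymes of proline synthesis and transsulfuration, none had an interval above 1 and 2 lay below it in L597R (all genes 25.5% and 23.9%). After adjustment the counts were 0 and 1 (protein-coding genes 17.4% and 16.7%). ALDH18A1, which starts proline synthesis, was at 47.9 (P-Enter), 45.0 (WT) and 41.3 FPKM (L597R). Its ratio for WT was 0.938 (0.887 to 0.992), and 0.959 (0.907 to 1.01) adjusted. It was lower in L597R both before (0.861, 0.814 to 0.911) and after trend adjustment (0.897, 0.848 to 0.948). PYCR1, the last enzyme of the same path, was at 20.4, 20.9 and 19.4 FPKM, and CTH, which releases cysteine, at 2.77, 2.80 and 2.97. CBS, the enzyme before CTH, was at 2.11, 1.73 and 1.598 FPKM, lower in L597R (0.759, 0.615 to 0.935) but not beyond the trend (0.873, 0.708 to 1.08). CBS has a near-identical copy in this build, so its count is uncertain.

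ASNS, which makes asparagine and carries the best-known element of this kind (shown above), was almost unread in all 3 libraries. The reads numbered 11 (P-Enter), 8 (WT) and 25 (L597R), or 0.169, 0.104 and 0.308 FPKM. The highest count was in L597R, with a ratio of 2.95 (1.29 to 7.56) to WT and 1.82 (0.864 to 4.10) to P-Enter. In the annotation, 44.6% of the exonic bases of ASNS (ENSG00000070669, chr7:97852118-97872542, minus strand) are shared with AC079781.5, another gene on the same strand. Reads that fall on 2 genes are left out by some counting modes, and the mode used was not given, so these values do not tell a low level of ASNS mRNA from reads that were not counted. AC079781.5 was not analysed here.

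Transporters of amino acids were abundant and, before adjustment, close to the control in both BRAF libraries. Of 5, the interval lay above 1 for 0 and below 1 for 0 in WT (all genes 14.0% and 12.1%). In L597R the counts were 2 and 1 (all genes 25.5% and 23.9%). After adjustment they were 4 and 0 in WT (protein-coding genes 10.2% and 10.8%), and 3 and 0 in L597R (protein-coding genes 17.4% and 16.7%). In WT these were SLC7A5 (1.07, 1.03 to 1.105), SLC3A2 (1.05, 1.01 to 1.08), SLC7A1 (1.05, 1.01 to 1.095) and SLC1A5 (1.11, 1.06 to 1.17). SLC7A5 and SLC3A2, the light and heavy chains of the exchanger LAT1 that imports leucine, were at similar levels of 98.9 and 84.6 FPKM in P-Enter. SLC7A5 was at 100.3 in WT and 106.8 in L597R, and SLC3A2 at 84.6 and 90.8. The 2 chains were higher by nearly the same factor in L597R, with ratios of 1.08 (1.05 to 1.12) for SLC7A5 and 1.07 (1.04 to 1.11) for SLC3A2. Their transcripts have 61.1% and 57.4% GC, where genes in general were lower in L597R, and the adjusted ratios were 1.24 (1.20 to 1.28) and 1.22 (1.18 to 1.26). SLC1A5, the glutamine carrier, was at 59.2, 62.3 and 60.6 FPKM. Its ratio for L597R was 1.02 (0.972 to 1.08), and 1.17 (1.11 to 1.23) adjusted. Exons of other genes on the opposite strand cover 23.8% of its exonic bases. SLC7A1, the arginine and lysine carrier, was at 40.2, 41.2 and 38.0 FPKM, lower in L597R (0.945, 0.907 to 0.986) before adjustment and not after it (1.03, 0.984 to 1.07). SLC1A4, a carrier of serine and alanine, was low at 1.80, 1.79 and 1.59 FPKM.

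**Figure D2:**
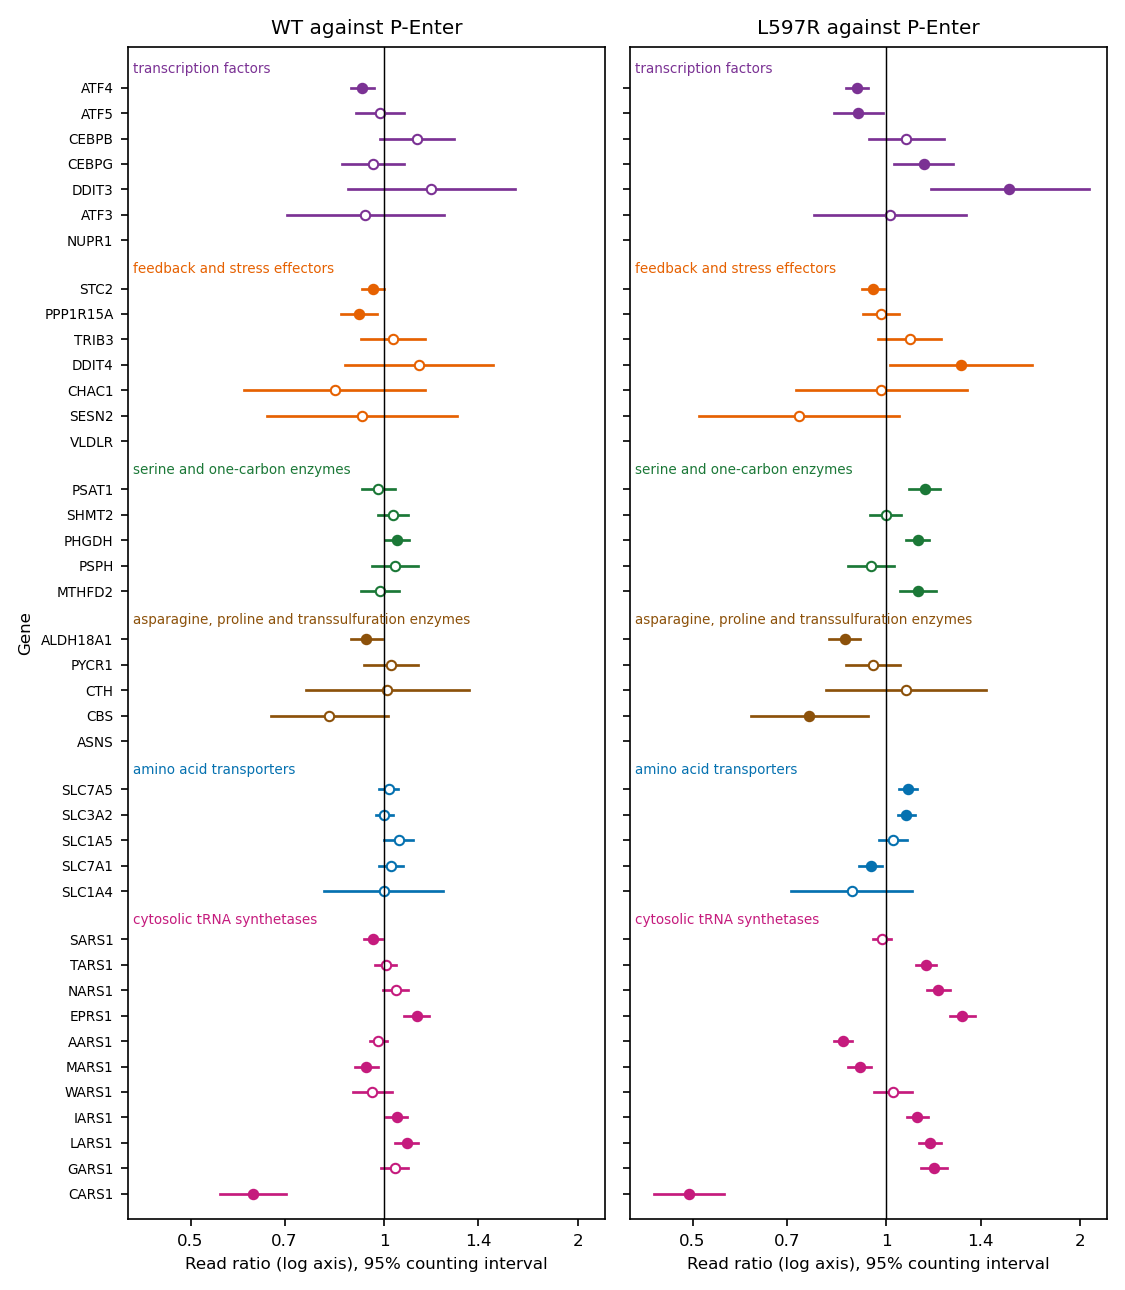
Read ratio to P-Enter (log axis) of the 37 members that met the filter, for WT at left and L597R at right, with bars for the exact 95% counting interval and filled points where that interval leaves out 1. CARS1 stands apart to the left in both panels (0.625 and 0.494), and DDIT3 has the highest ratio in L597R (1.55) with a wide interval.

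Cytosolic tRNA synthetases, which join each amino acid to its tRNA, included CARS1, with the lowest read ratio of the 37 members in L597R, and EPRS1, with the highest after DDIT3. Their 11 genes together took 3363 CPM (3332 to 3394) of P-Enter, 3380 (3351 to 3409) of WT and 3547 (3518 to 3576) of L597R. In L597R the interval lay above 1 for 6 (EPRS1, GARS1, IARS1, LARS1, NARS1 and TARS1) and below 1 for 3 (AARS1, CARS1 and MARS1), where 25.5% and 23.9% of all genes did. The 11 were deeply read, with a median of 9155 reads over both libraries. The 6 higher ones had 41.5% to 48.6% GC and the 3 lower ones 51.9% to 53.8%. Across the 11 genes, which share the same libraries, the Spearman correlation of the difference with GC content was -0.79 for L597R and -0.86 for WT. After trend adjustment the interval lay above 1 for EPRS1, GARS1, NARS1, SARS1, TARS1 and WARS1 and below 1 for AARS1 and CARS1. Of protein-coding genes, 17.4% and 16.7% did.

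CARS1, which charges tRNA with cysteine, was lower in both BRAF libraries. It was at 5.01 (P-Enter), 3.14 (WT) and 2.48 FPKM (L597R), from 669, 493 and 413 reads. The ratio was 0.625 (0.556 to 0.704) for WT and 0.494 (0.436 to 0.560) for L597R against P-Enter, and that of L597R to WT was 0.790 (0.692 to 0.903). Trend adjustment left it at 0.640 (0.568 to 0.720) and 0.529 (0.467 to 0.599). On the log2(FPKM + 1) scale the differences were -0.54 and -0.79, short of the size rule. CARS1 was also the least expressed of the 11 synthetases in each library.

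CARS1 (ENSG00000110619) lies at chr11:3000922-3057613 on the minus strand, and other genes of the locus were read too, chosen after the value of CARS1 was seen. NAP1L4, a histone chaperone gene beside it on the same strand, was also lower in both, at 18.1, 13.9 and 11.7 FPKM in P-Enter, WT and L597R. Its ratios were 0.769 (0.709 to 0.834) and 0.649 (0.597 to 0.706), and adjusted 0.79 (0.72 to 0.85) and 0.68 (0.63 to 0.74). PHLDA2, beyond NAP1L4 and below the filter on average, had 15, 14 and 0 reads, and the 0 allows up to 0.181 CPM (3 reads). OSBPL5, on the other side, was at 2.63, 2.68 and 2.17 FPKM. Its ratio was 1.02 (0.864 to 1.21) for WT and 0.825 (0.693 to 0.982) for L597R, the latter 0.935 (0.786 to 1.11) adjusted. The part of the locus in the difference of CARS1 was not tested.

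EPRS1, the enzyme for both glutamate and proline, had the clearest order in the other direction. It was at 45.4 (P-Enter), 50.98 (WT) and 59.5 FPKM (L597R), from 3214, 4251 and 5262 reads. The ratios were 1.12 (1.07 to 1.18) for WT and 1.31 (1.254 to 1.37) for L597R against P-Enter, and that of L597R to WT was 1.17 (1.12 to 1.22). After trend adjustment they were 1.09 (1.04 to 1.14), 1.21 (1.16 to 1.27) and 1.11 (1.07 to 1.16).

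Synthetases for asparagine, glycine and threonine were higher in L597R but not clearly in WT. NARS1 was at 65.8, 68.5 and 79.2 FPKM, with a ratio of 1.20 (1.15 to 1.26) for L597R and 1.15 (1.10 to 1.20) after adjustment. GARS1 was at 12.9, 13.4 and 15.3 FPKM, with a ratio of 1.19 (1.13 to 1.24) that adjustment hardly moved (1.18, 1.12 to 1.23). TARS1 was at 89.5, 89.9 and 103 FPKM, with a ratio of 1.15 (1.11 to 1.19), and 1.08 (1.05 to 1.12) adjusted. For WT all 3 intervals held 1.

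IARS1 and LARS1, for the branched-chain amino acids isoleucine and leucine, showed small differences of the size of the trend. IARS1 was at 16.03, 16.8 and 17.9 FPKM in P-Enter, WT and L597R, and LARS1 at 15.3, 16.5 and 17.8. Their ratios for L597R of 1.12 (1.07 to 1.16) and 1.17 (1.12 to 1.22) became 0.992 (0.955 to 1.03) and 0.994 (0.955 to 1.03). For WT, 1.05 (1.006 to 1.09) and 1.08 (1.04 to 1.13) became 0.971 (0.934 to 1.01) and 0.991 (0.951 to 1.03). The lengths that entered the trend were 22418 bases for IARS1 and 20639 for LARS1, against 7401 and 8118 exonic bases in the annotation.

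AARS1, for alanine, was lower in L597R, at 54.0 (P-Enter), 52.8 (WT) and 46.2 FPKM (L597R). The ratio was 0.856 (0.829 to 0.884), and 0.934 (0.905 to 0.964) adjusted. MARS1, for methionine, had a ratio of 0.908 (0.872 to 0.947) in L597R that adjustment moved to 1.0 (0.960 to 1.04), and one of 0.937 (0.899 to 0.977) in WT that moved to 0.969 (0.929 to 1.01). The most abundant synthetase, SARS1 for serine, was at 138, 133 and 136 FPKM and WARS1 for tryptophan at 18.1, 17.3 and 18.5. SARS1 was at 0.961 (0.931 to 0.992) in WT, and 0.995 (0.964 to 1.03) adjusted. Neither had an interval away from 1 in L597R before adjustment. Adjusted ratios there were 1.07 (1.04 to 1.10) for SARS1 and 1.10 (1.02 to 1.17) for WARS1. Levels between genes rest on the gene length that the authors divided by. For 5 members, AARS1, GARS1, IARS1, LARS1 and MTHFD2, it was over 2 times the exonic length of the annotation. The regressions used the same length, so the adjusted ratios of these members rest on it too.

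**Figure D3:**
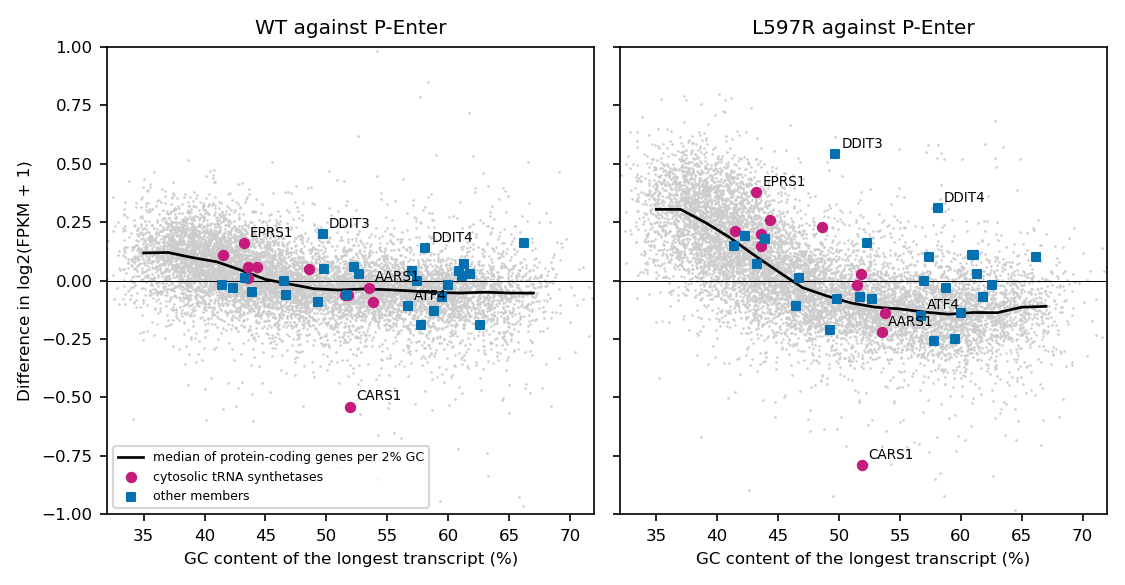
Difference in log2(FPKM + 1) from P-Enter against the GC content of the longest transcript, for WT at left and L597R at right, with protein-coding genes in grey, their median per 2% of GC as a line, synthetases as circles and other members as squares. CARS1 lies below it and DDIT3 and DDIT4 above it in L597R, and 29 of 9354 protein-coding genes in each panel lie outside the axes.

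**Figure D4:**
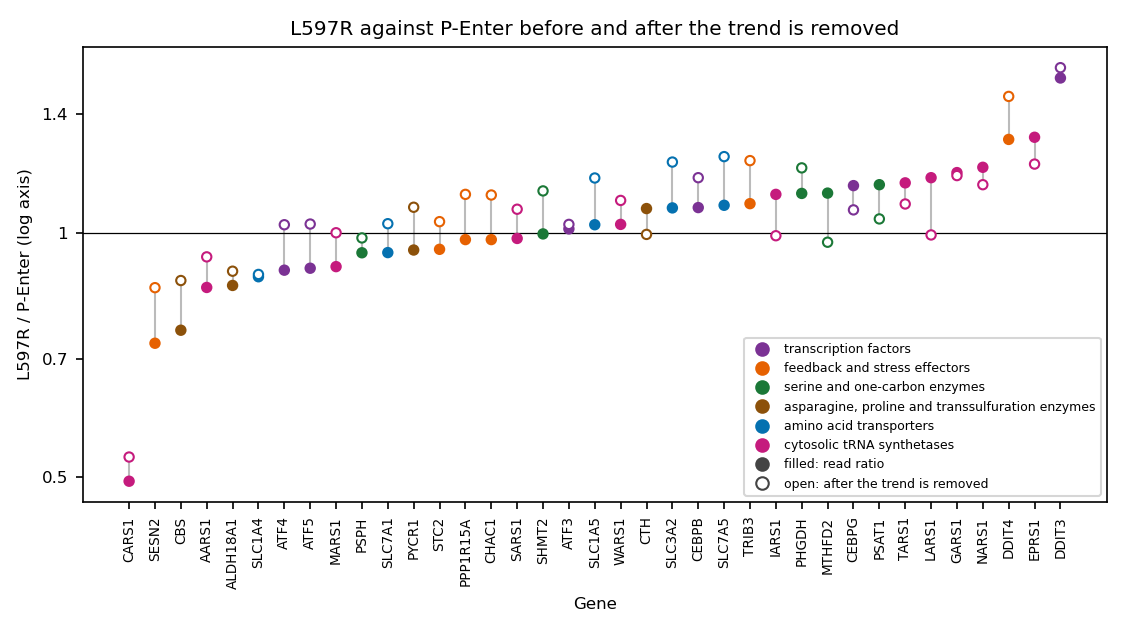
Ratio of L597R to P-Enter (log axis) for the 37 members, ordered by read ratio, with filled points for the read ratio, open points for the trend-adjusted ratio and colours for roles. Open points for SLC7A5, SLC3A2 and TRIB3 lie above 1.2, while those of LARS1, IARS1 and MTHFD2 come to just under 1.

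The comparison of the mutant with wild-type BRAF drew on the same L597R and WT libraries as above. Here the interval lay above 1 for 15 and below 1 for 6 of 37 members (background 22.1% and 16.3%), 38.4% together, and after trend adjustment for 17 and 4 (background 14.0% and 13.4%). By the narrower count 0 members were higher and 0 lower, where 0.809% and 0.630% of all genes were counted, 1.44% together. The median difference was 0.07, and 0.01 over all genes tested. PSAT1 had a ratio of 1.17 (1.11 to 1.24), and 1.09 (1.03 to 1.15) adjusted. SLC7A5 stood at 1.07 (1.03 to 1.10) and SLC3A2 at 1.07 (1.04 to 1.11), with adjusted ratios of 1.16 (1.13 to 1.20) and 1.17 (1.13 to 1.20). DDIT3 was at 1.31 (1.02 to 1.69). Lower members were AARS1 at 0.875 (0.848 to 0.902), ALDH18A1 at 0.918 (0.869 to 0.970), PSPH at 0.910 (0.841 to 0.983), and CARS1 as given above. Adjusted, AARS1 was at 0.934 (0.905 to 0.963), ALDH18A1 at 0.935 (0.885 to 0.987) and PSPH at 0.923 (0.853 to 0.997). CARS1 was then at 0.827 (0.724 to 0.945). ATF5 and SLC7A1 were the others below 1, and their adjusted intervals held 1. BRAF reads were also higher in L597R than in WT, so mutation and amount of BRAF mRNA cannot be told apart.

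Upstream of ATF4, genes for the eIF2 kinases, eIF2 and its exchange factor eIF2B were read as a list of 15, of which 14 met the filter and none passed the size rule. In L597R the interval lay above 1 for 4 and below 1 for 3 (all genes 25.5% and 23.9%), and in WT for 3 and 1 (all genes 14.0% and 12.1%). After adjustment the counts in L597R were 1 and 5 (protein-coding genes 17.4% and 16.7%). EIF2B5, the catalytic subunit of the exchange factor that phosphorylated eIF2 blocks, was lower in both, with ratios to P-Enter of 0.838 (0.774 to 0.907) in WT and 0.766 (0.707 to 0.829) in L597R. Its adjusted ratios were 0.849 (0.784 to 0.919) and 0.796 (0.735 to 0.863). EIF2B4, another subunit, was lower in L597R (0.802, 0.723 to 0.889, and 0.849, 0.765 to 0.942 adjusted), and EIF2B3 was at 1.10 (0.995 to 1.22) in WT. EIF2S2, the beta subunit of eIF2, was higher in L597R (ratio 1.20) and in WT (1.05, 1.007 to 1.10). EIF2AK2, the kinase activated by double-stranded RNA, was at 1.12 (1.04 to 1.20) in WT and 1.17 (1.10 to 1.26) in L597R, and both intervals held 1 after adjustment, at 1.02 (0.954 to 1.09) and 0.956 (0.894 to 1.02).

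Further targets of ATF4 formed a list of 25, of which 23 had values and 16 met the filter, with none past the size rule. The interval lay above 1 for 4 and below 1 for 1 in WT, and for 5 and 1 in L597R, beside 14.0% and 12.1%, and 25.5% and 23.9%, of all genes. After adjustment it lay above 1 for 8 and below 1 for 0 in L597R, beside 17.4% and 16.7% of protein-coding genes. SLC38A1, a glutamine carrier, had an adjusted ratio of 1.14 (1.10 to 1.18) in L597R. SLC7A11, the cystine carrier, which also responds to NRF2, was at 1.27 (1.21 to 1.33) in WT and 1.75 (1.67 to 1.83) in L597R, and at 1.31 (1.253 to 1.37) in L597R after adjustment. EIF4EBP1, an inhibitor of cap-dependent translation, was at 1.18 (1.07 to 1.297) in WT. SQSTM1, the autophagy receptor, was lower in WT (0.819, 0.753 to 0.890), and HERPUD1 lay at 0.968 (0.898 to 1.04).

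Synthetases outside the 11, with the scaffold proteins of the multi-synthetase complex, gave 12 genes that all met the filter. In WT the interval lay above 1 for 0 and below 1 for 4 (all genes 14.0% and 12.1%), and in L597R for 3 and 6 (all genes 25.5% and 23.9%). After adjustment the counts in L597R were 1 and 3 (protein-coding genes 17.4% and 16.7%). QARS1, for glutamine, was at 0.847 (0.800 to 0.898) and VARS1, for valine, at 0.894 (0.849 to 0.941) in L597R. Both intervals held 1 after adjustment, at 0.945 (0.892 to 1.001) and 1.01 (0.960 to 1.06). The scaffold AIMP1 was at 1.28 (1.18 to 1.395) in L597R and at 0.982 (0.902 to 1.07) after adjustment, and RARS1, for arginine, at 1.09 (1.03 to 1.14) and 0.967 (0.921 to 1.01). AIMP2, the other named scaffold, was lower in WT (0.870, 0.788 to 0.962), with 28.9% of its exonic bases under EIF2AK1 on the other strand, and FARSA, a subunit of the phenylalanine enzyme, was at 0.942 (0.893 to 0.993) in WT. Adjusted, both intervals held 1, at 0.906 (0.820 to 1.002) and 1.0 (0.949 to 1.05). The median difference of these 12 for L597R was -0.09, and that of the 11 synthetases above 0.15. With the value of the first regression, on log2(FPKM + 1) differences, subtracted, the medians were -0.04 and 0.08. Whether the lists differ was not tested.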

How the data were processed

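RNA sequencing of 3 libraries of DU145 cells, 1 per group, was analysed. Per the file headers, the values that the authors deposited are FPKM, with 1 row for each Ensembl ID. The submitters' processing notes name Trimmomatic, HISAT2, Cufflinks and HTSeq with hg38/GRCh38; no source used here gives versions, annotation release, counting mode or strand setting. Symbols came from a gene name table (23330 of 23379 IDs), and positions, exons and GC content of the longest transcript from GENCODE 29 (22807 IDs).

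Library totals and gene lengths were searched that give whole reads in all libraries within 1e-05, which succeeded for 23246 genes (99.4%), all 40 members included. The recovery and the interval calculation were tried on simulated counts drawn independently (Poisson). Such counts follow the model that the intervals assume, without amplification copies, spread between cultures or the GC gradient. Coverage in real libraries was thus not tested. Read ratios carry Clopper-Pearson 95% intervals conditional on the sum of both counts. Copies from amplification are not independent molecules. The size rule used a pseudocount of 1 on log2(FPKM + 1). Both regressions used cubic terms of GC content and of the logs of mean FPKM and of the gene length found in that search.

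Members and lists were chosen with earlier results of these data known. All members were described. From the other lists, the 2 highest and 2 lowest differences against P-Enter at a mean of at least 5 FPKM were named, along with genes past the size rule. Alternatives covered pseudocounts, filters, thresholds, rescaling, the regression and overlap with other genes. Software was scipy 1.17.1, pandas 2.3.3, numpy 2.4.6 and matplotlib 3.10.9 under Python 3.11.15.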

Additional observations from a re-analysis of the deposited data

How the results depend on the processing

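No member passed the size rule with pseudocounts of 0.1 and 5, no filter, a mean of at least 5 FPKM or rescaling by the median ratio, in any of the 3 comparisons. At a threshold of 1.5-fold 1 member passed for L597R against P-Enter (CARS1, lower) and 0 in the other comparisons. The share of all genes at that threshold was not worked out, so this count has no background. Intervals wholly over 25% higher or over 20% lower, in place of either the size rule or an interval away from 1, left 1 member (WT), 2 members (L597R) and 0 members (between L597R and WT). Medians stayed between 0.00 and 0.10 under all settings run. Among members whose interval had left out 1, trend adjustment turned the side of 1 for IARS1 (0.971) and LARS1 (0.991) in WT, and in L597R against P-Enter for ATF4 (1.02), ATF5 (1.02), STC2 (1.03), SLC7A1 (1.03), MTHFD2 (0.973), IARS1 (0.992) and LARS1 (0.994). All those intervals then held 1, and the cause was not tested. Some members whose interval had held 1 also turned and then lay above it: PPP1R15A (1.11), SHMT2 (1.13) and SARS1 (1.07) in L597R against P-Enter, and ATF4 (1.04), STC2 (1.04) and SLC1A5 (1.05) between L597R and WT. Members with 20% or more of their exonic bases under another gene were ASNS, ATF5, DDIT3, DDIT4, MTHFD2, PYCR1 and SLC1A5. Leaving them out, a choice made after the data were seen, kept 31 members that met the filter. Of these, 11, 19 and 18 had intervals away from 1, in place of 11, 23 and 21. No paired analysis was possible because each group has 1 library. Intervals show counting error alone, and spread between cultures is unknown.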

Other observations

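Mitochondrial tRNA synthetases, which charge tRNAs for the proteins encoded in mitochondria, were read as a further list, and 15 of 17 had values and met the filter. For L597R against P-Enter the interval lay above 1 for 1 and below 1 for 4 (all genes 25.5% and 23.9%). After trend adjustment the counts were 0 and 2 (protein-coding genes 17.4% and 16.7%). WARS2 was at 1.13 in each (WT 1.01 to 1.28, L597R 1.01 to 1.27), and adjusted at 1.10 (0.974 to 1.24) and 1.02 (0.908 to 1.15), with NARS2 at 1.12 (0.987 to 1.28) in L597R and YARS2 at 1.07 (0.962 to 1.20) in WT. LARS2 was lower in L597R (0.834, 0.760 to 0.914, and 0.871, 0.794 to 0.955 adjusted). EARS2 was at 0.896 (0.818 to 0.982) for WT and 0.871 (0.795 to 0.953) for L597R, and adjusted intervals held 1, at 0.917 (0.837 to 1.005) and 0.928 (0.847 to 1.02). RARS2 was at 0.899 (0.798 to 1.01) in WT. Their summed level was 851 (P-Enter), 842 (WT) and 829 CPM (L597R).

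The other arms of the unfolded protein response, run by ATF6 and XBP1, were read through 15 genes, all of which met the filter and none of which passed the size rule. For L597R against P-Enter the interval lay above 1 for 4 and below 1 for 8 (all genes 25.5% and 23.9%). After trend adjustment the counts were 3 and 7 (protein-coding genes 17.4% and 16.7%). DNAJB9, a co-chaperone of BiP and target of XBP1, had levels of 4.12 (P-Enter), 6.09 (WT) and 7.48 FPKM (L597R). Its ratios were 1.48 (1.19 to 1.83) and 1.81 (1.48 to 2.23), and 1.42 (1.14 to 1.76) and 1.56 (1.27 to 1.92) after adjustment. DNAJC3, an inhibitor of the eIF2 kinase PERK, had ratios of 1.22 (WT, 1.10 to 1.34) and 1.34 (L597R, 1.22 to 1.48). Abundant chaperones differed in direction. CALR was at 0.870 (0.854 to 0.885) in L597R, and 0.975 (0.957 to 0.992) adjusted. HSPA5, which encodes BiP, was at 0.939 (0.920 to 0.959) in WT, and 0.930 (0.911 to 0.949) adjusted. In L597R it was at 0.910 (0.892 to 0.929), and 0.905 (0.887 to 0.923) adjusted. HSP90B1, PDIA6, HYOU1, XBP1 and DNAJB11 were named after their values were seen. XBP1 itself was at 0.908 (0.837 to 0.9845) in L597R, and 0.803 (0.741 to 0.871) adjusted. DNAJB11 was at 1.004 (0.917 to 1.10) in L597R, and 0.801 (0.732 to 0.877) adjusted. HSP90B1 was at 1.27 (1.23 to 1.32) in L597R, and 1.10 (1.07 to 1.14) adjusted. PDIA6 was at 0.927 (0.892 to 0.963) in L597R, and 0.913 (0.879 to 0.949) adjusted. HYOU1, at a mean of only 2.54 FPKM, was at 0.68 (0.57 to 0.80) in WT and 0.75 (0.64 to 0.88) in L597R. Its adjusted ratios were 0.71 (0.60 to 0.84) and 0.84 (0.72 to 0.99). PDIA4 in WT (0.941, 0.916 to 0.967) and CRELD2 in L597R (0.876, 0.790 to 0.971) had adjusted intervals that held 1, at 0.983 (0.957 to 1.01) and 0.966 (0.872 to 1.07).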
